A study of Mus musculus with 6 samples.

Results

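The RUNX transcription factors Runx1 and Runx2, their shared partner subunit Cbfb and the zinc-finger factor Sp7, also called osterix, were followed in 2H11 cells kept for 48 h without or with BMP4. They were taken by gene name from the deposited expression tables, where they were 4 of 11754 genes and 9 of 22148 transcripts. Runx1 had 2 listed transcripts, Runx2 had 2, Cbfb had 4 and Sp7 had 1. 2H11 is an established mouse endothelial line of the C3H/HeJ strain, labelled as coming from axillary lymph node and vascular epithelium. All cells were starved. The untreated group and the BMP4 group had 3 samples each, and the labels do not give the dose of BMP4 or say whether replicates were separate cultures. The p-values therefore measure only the spread between these samples.

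RUNX proteins bind DNA through the Runt domain, and CBFB, which does not itself contact DNA, binds that domain and strengthens the contact. RUNX2 is required for osteoblasts to form, SP7 acts downstream of RUNX2 in the same lineage, and both are known targets of BMP signaling in bone. RUNX1 is required in the embryo for blood cells to arise from endothelium.

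Levels are given in FPKM, fragments per kilobase of transcript scaled to the size of the library, so they can be compared between genes of different length. The FPKM summed over all listed genes lay between 256997 and 273562 in the untreated samples and between 252329 and 264273 in the BMP4 samples, and the read depth of the samples is unknown. Of 15 endothelial markers 6 were listed. In the test described below Flt1 rose, Cd34 and Ecscr fell and Eng, Egfl7 and Ets1 did not pass. Flt1 had means of 0.924 FPKM untreated and 1.96 FPKM with BMP4, and entered that test only through the BMP4 group. Over all tested genes 13.6% rose and 14.3% fell. Pecam1, Cdh5, Kdr and Tek were among the 15 but not among the 6 listed, so they have no values here. All 10 fibroblast markers were listed. The summed level of the fibroblast markers was 2970 to 3030 FPKM in the untreated samples and 1540 to 1550 FPKM in the BMP4 samples, and that of the listed endothelial markers was 95.6 to 98.0 FPKM and 61.2 to 69.0 FPKM. Of the 10 fibroblast markers 6 fell, among them Col1a1 and Col3a1, which have the highest levels in that sum. Another 3 rose, Pdgfra from 18.1 to 25.1 FPKM, Pdgfrb from 29.7 to 44.6 FPKM and Thy1 from 27.6 to 37.5 FPKM. The endothelial sum fell mainly through Cd34, from 52.2 to 24.5 FPKM. The 3 listed leukocyte markers of 10, Cd68, Cd14 and Lyz2, summed to 10.3 to 15.6 FPKM untreated and 12.1 to 13.7 FPKM with BMP4. The part of these shifts in the results that follow was not tested. In such bulk samples, fewer cells of a type and less RNA per cell cannot be told apart.

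Runx1 and Runx2 each have a distal promoter (P1) and a proximal promoter (P2), and transcripts from them differ in their first exons. The first coding bases tell the 2 kinds of transcript apart and are shown here for that reason. Statements on promoter use rest on the level of whole transcript models, not on reads over these bases. The sequences are read from GENCODE M21 models on GRCm38, minus strand, from the start codon, in capitals. Those of P1 run to the end of the exon that holds the start codon. Those of P2 stop inside that exon, at the last base before the part shared with the P1 transcript. The sequences lie at chr16:92825589-92825646 (Runx1 P1), chr16:92695738-92695753 (Runx1 P2), chr17:44814169-44814226 (Runx2 P1) and chr17:44735619-44735634 (Runx2 P2).
Runx1 P1 coding start: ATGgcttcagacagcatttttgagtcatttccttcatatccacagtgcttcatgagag
Runx2 P1 coding start: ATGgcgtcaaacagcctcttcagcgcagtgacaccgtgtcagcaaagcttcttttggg
Runx1 P2 coding start: ATGcgtatccccgtag
Runx2 P2 coding start: ATGcgtattcctgtag
Both P1 transcripts code for 58 bases before the first coding splice site. In both P2 transcripts 16 coding bases come before the part shared with P1, and the exon runs on into that part without a splice site. The bases that code for the Runt domain lie downstream of both starts and are common to both kinds.

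The most distal annotated starts lay 129 kb (Runx1) and 78.1 kb (Runx2) upstream of the proximal ones. The promoters in the RefSeq table (GRCm38.p6) hold 250 bases before and 50 bases after an annotated start, and those of the distal starts are printed because they carry matches to the binding motif of the RUNX proteins themselves. The motif was searched as TGTGGT or TGCGGT on both strands, the first reading ACCACA on the other strand, and no 2 matches overlapped. Matches are in capitals. The regions are chr16:92826025-92826324 (Runx1 P1), chr17:44814578-44814877 (Runx2 P1) and chr16:92697280-92697579 (Runx1 P2), all on the minus strand. In both genes the RefSeq distal start lies downstream of the most distal GENCODE start. In Runx2 it lies upstream of the P1 model whose coding start is printed above.
Runx1 distal promoter P1: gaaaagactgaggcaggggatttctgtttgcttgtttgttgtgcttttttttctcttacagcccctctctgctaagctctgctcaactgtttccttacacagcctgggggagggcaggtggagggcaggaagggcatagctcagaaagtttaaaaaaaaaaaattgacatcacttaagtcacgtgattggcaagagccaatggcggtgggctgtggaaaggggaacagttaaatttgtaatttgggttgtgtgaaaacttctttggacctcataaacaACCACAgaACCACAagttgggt
Runx2 distal promoter P1: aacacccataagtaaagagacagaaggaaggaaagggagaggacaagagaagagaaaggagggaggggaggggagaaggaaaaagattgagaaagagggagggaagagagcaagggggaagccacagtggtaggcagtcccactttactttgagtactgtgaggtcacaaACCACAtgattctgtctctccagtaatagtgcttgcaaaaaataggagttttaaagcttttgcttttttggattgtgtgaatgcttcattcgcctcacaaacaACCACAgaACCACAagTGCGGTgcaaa
Runx1 proximal promoter P2: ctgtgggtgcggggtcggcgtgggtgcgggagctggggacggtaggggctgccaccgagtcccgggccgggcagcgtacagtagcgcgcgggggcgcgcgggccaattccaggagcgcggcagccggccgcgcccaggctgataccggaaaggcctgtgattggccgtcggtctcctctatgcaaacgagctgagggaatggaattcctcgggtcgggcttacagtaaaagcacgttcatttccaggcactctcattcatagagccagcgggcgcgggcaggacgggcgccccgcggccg
The Runx1 distal promoter held 2 matches, at positions 29 and 37 counted from the annotated start as 1, and the Runx2 distal promoter held 4, at -80, 24, 32 and 40. The Runx1 proximal promoter and the Cbfb promoter held 0 matches. Of the 32851 mouse promoters in the table, 22.4% held at least 1 match and 0.0639% held at least 4. The longest stretch common to both distal promoters was 22 bases, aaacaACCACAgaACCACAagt, which holds a pair of matches and starts at position 24 in Runx1 and position 19 in Runx2. It was found in 2 of the 32851 promoters, those of Runx1 and Runx2. A match describes the letters only and is no measurement of binding. The RefSeq table was also searched for Sp7 and for the Runx2 proximal promoter, which are named only.

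**Figure D1:**
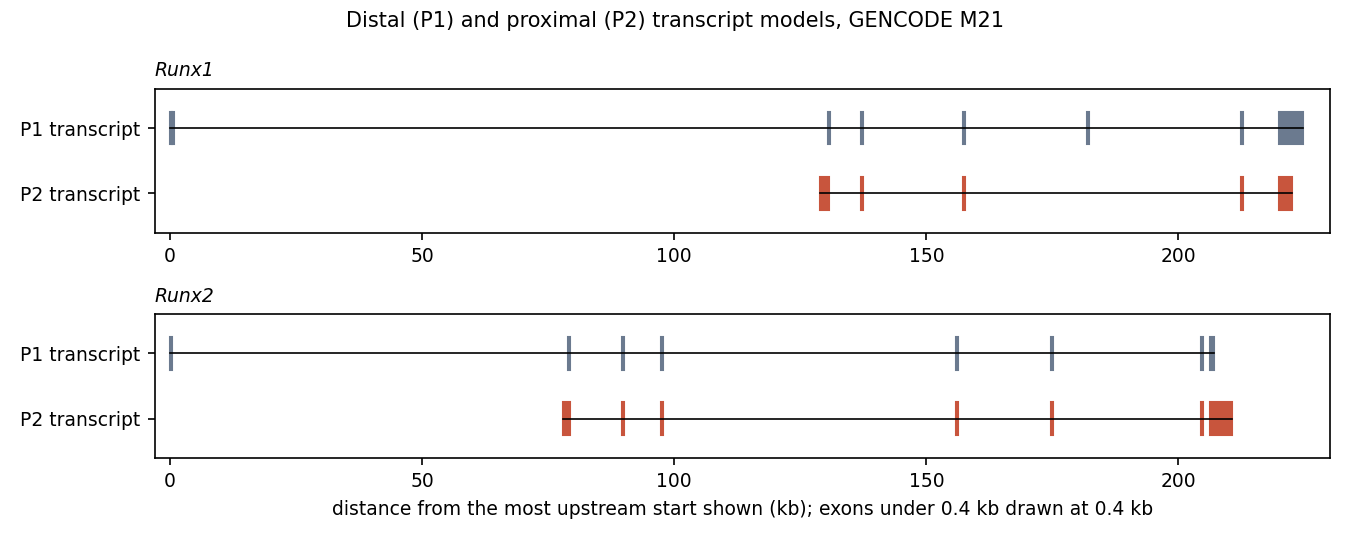
Exon maps of a distal (P1) and a proximal (P2) transcript model of Runx1 and Runx2 from GENCODE M21, against distance in kb from the most upstream start shown; boxes are exons and lines are introns. The proximal start lies 129 kb from the distal one in Runx1 and 77.9 kb in Runx2 between the models drawn, and the exons downstream are largely shared.

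The 4 genes were all higher with BMP4, by very different amounts. Runx2 had 2.38 times its untreated level and Sp7 went from close to 0 to about the lowest level the tables hold, while Runx1 had 1.38 times and Cbfb 1.10 times its untreated level. In each of the 4 genes the lowest BMP4 sample was above the highest untreated sample, and the same was true of 22.6% of all listed genes. For Sp7, listed only through the BMP4 group, this separation was all but fixed by the listing. Runx2, Runx1 and Cbfb averaged 1 FPKM or more over all samples and were tested with limma across 10932 genes. All 3 were past an adjusted p of 0.05 in the upward direction, as were 13.6% of the tested genes, while 14.3% were past it downward and 27.9% in either direction. In every sample the order of levels was Cbfb, Runx2, Runx1, Sp7 from highest to lowest, and the ranges of neighbouring genes in that order did not overlap.

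**Figure D2:**
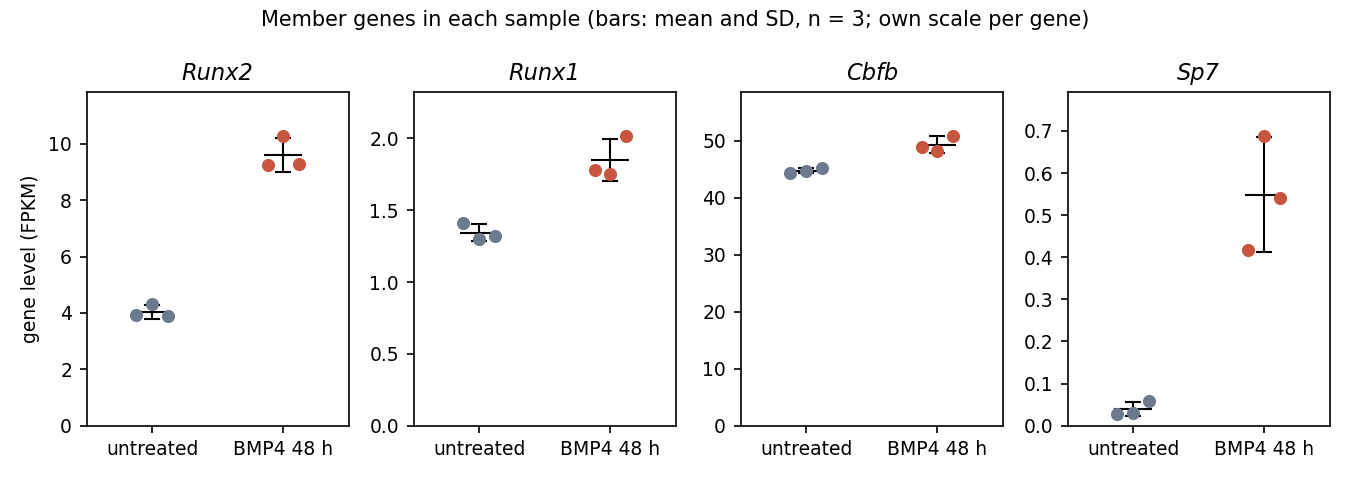
Gene level in FPKM of Runx2, Runx1, Cbfb and Sp7 in the 3 untreated and 3 BMP4 samples (points), with the mean and SD, on a separate axis from 0 for each gene. The groups do not overlap in any of the 4 genes, and the mean goes from 4.04 to 9.61 FPKM in Runx2, from 1.34 to 1.85 in Runx1, from 44.8 to 49.3 in Cbfb and from 0.0392 to 0.548 in Sp7. Sp7 is listed only through the BMP4 group, so its groups had to differ.

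Runx2 (ENSMUSG00000039153.16, chr17:44495987-44814797, minus strand, GRCm38) encodes the factor that directs cells to the osteoblast lineage. Its level was 3.92, 4.33 and 3.88 FPKM in the untreated samples and 9.24, 10.3 and 9.29 FPKM in the BMP4 samples. The 3 BMP4 samples lay close together and each had more than any untreated sample. The mean rose from 4.04 ± 0.252 to 9.61 ± 0.600 FPKM (SD, n = 3 per group), or by 1.07 ± 0.07 (SE) on the log2(FPKM + 1) scale (limma adjusted p = 5.04e-05). Among called genes, 132 had a larger log2 fold change than Runx2. Its mean moved from the 29.8th to the 54.8th percentile of the listed genes.

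The change in Runx2 was carried by the proximal transcript Runx2-002 (ENSMUST00000113572.8, chr17:44604001-44736648). Its level was 5.02, 5.55 and 5.08 FPKM untreated and 11.6, 13.0 and 11.5 FPKM with BMP4, so that the groups did not overlap. It rose by 1.07 ± 0.08 (SE) on the log2 scale (limma adjusted p = 0.00186 over 17213 transcripts). Of the tested transcripts 8.55% passed in either direction and 4.03% rose. The mean went from 5.21 ± 0.293 to 12.1 ± 0.856 FPKM (SD, n = 3). This is the model that begins with the 16-base coding start printed above.

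The other listed transcript, Runx2-010 (ENSMUST00000162130.7, chr17:44608315-44735366), is a partial model that holds neither end of the coding sequence. It was at 0.440, 0.366 and 0.377 FPKM untreated and 0.472, 0.684 and 0.558 FPKM with BMP4. Its mean over the 6 samples, 0.483 FPKM, was below the filter, so it was not tested, and its place in the table rested on the BMP4 group mean. Runx2-002 made up 91.9% to 93.8% of the listed Runx2 FPKM untreated and 95.0% to 96.1% with BMP4. The balance of Runx2-002 against Runx2-010 shifted by 0.90 on the log2 scale, which did not pass the test over 11574 transcripts (limma adjusted p = 0.23). Its unadjusted limma p was 0.00205, and 6.58% of these transcripts had an unadjusted p under 0.05 while 0.225% passed after adjustment.

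None of the 7 Runx2 models that start at the distal promoter in GENCODE M21, 4 of them protein-coding, was in the transcript table. The table holds protein-coding transcripts only, so the distal models of other types would not be listed at any level. It lists transcripts whose higher group mean was at least 0.5 FPKM, so a protein-coding distal transcript below that level would not be seen either. The gene level gives a limit on what was left out, since the gene FPKM is the length-weighted sum over transcripts and the Runx2 identifier has the same version in M21. The listed transcripts accounted for 94.5%, 94.3% and 96.5% of the Runx2 gene FPKM untreated and for 92.1%, 93.2% and 91.3% with BMP4. The remainder, over 8837 bases of exon, was 0.217, 0.245 and 0.135 FPKM untreated and 0.726, 0.706 and 0.804 FPKM with BMP4. It was higher in every BMP4 sample, with a two-sided exact permutation p of 0.1, the smallest that 3 against 3 can give. The tables do not say which transcripts this remainder came from.

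Sp7 (ENSMUSG00000060284.6, chr15:102356609-102366325, minus strand) encodes osterix, the second factor without which no bone forms in the mouse. Its level was 0.0285, 0.0303 and 0.0587 FPKM in the untreated samples and 0.416, 0.689 and 0.540 FPKM in the BMP4 samples. Every BMP4 sample was far above every untreated one, but all 6 values were below 1 FPKM. The mean was 0.0392 ± 0.0169 FPKM untreated and 0.548 ± 0.137 FPKM with BMP4 (SD, n = 3), a ratio of 14.0. The difference on the log2(FPKM + 1) scale was 0.57, with a two-sided exact permutation p of 0.1, the smallest possible for 3 against 3. In the fit with no filter on low values, over all 11754 listed genes, the limma adjusted p was 0.00208 and 13.9% of genes were called higher, but for the reason that follows this value supports nothing.

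The place of Sp7 in the table must be read with these values. The table holds genes whose higher group mean was at least 0.502 FPKM, and Sp7 reached that level only through the BMP4 group, so a listed gene with so low an untreated level had to differ. Sp7 stood at the 0.102th percentile of the listed genes untreated and at the 2.39th with BMP4. A single transcript (ENSMUST00000078508.5) carried all of the listed Sp7 signal, with the same FPKM as the gene. Runx2 was 66.0 to 143 times the Sp7 level untreated and 15.0 to 22.2 times it with BMP4.

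Runx1 (ENSMUSG00000022952.16, chr16:92601466-92826149, minus strand), the RUNX factor of blood formation, was at 1.41, 1.30 and 1.32 FPKM untreated and at 1.78, 1.75 and 2.02 FPKM with BMP4. The groups were separate but close, with 1 BMP4 sample somewhat above the other 2. The mean rose from 1.34 ± 0.0569 to 1.85 ± 0.148 FPKM (SD, n = 3), or by 0.28 ± 0.07 (SE) on the log2 scale (limma adjusted p = 0.0223). Of the untreated samples, leaving out the second (limma adjusted p = 0.0695) or the third (0.0571) ended the call. Leaving out BMP4 sample 1, 2 or 3 ended it too (limma adjusted p = 0.0567, 0.0517 and 0.0654).

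Runx1 had a listed transcript from each promoter, and they differed in how they varied. The distal transcript Runx1-001 (ENSMUST00000023673.13) was at 2.69, 1.88 and 2.48 FPKM untreated and at 2.29, 2.47 and 1.60 FPKM with BMP4. Its groups overlapped (difference on the log2 scale -0.10 ± 0.18 SE, limma adjusted p = 0.79). The proximal transcript Runx1-003 (ENSMUST00000113956.9, chr16:92603656-92697328) was listed at 9.5e-05, 0.716 and 0.000185 FPKM untreated and at 1.35, 1.08 and 2.94 FPKM with BMP4. It was close to 0 in 2 of 3 untreated samples and above 1 FPKM in every BMP4 sample.

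The BMP4 values of Runx1-003 all lay above the untreated ones, as did those of 13.7% of listed transcripts, and its place in the table and in the test rested on the BMP4 group. It differed by 1.16 ± 0.36 (SE) on the log2 scale, which did not pass the test over all transcripts (limma adjusted p = 0.125). Runx1-003 made up 0.00353%, 27.6% and 0.00745% of the listed Runx1 FPKM untreated and 37.0%, 30.4% and 64.7% with BMP4. The balance of Runx1-003 against Runx1-001 shifted by 1.27 on the log2 scale and did not pass either (SE 0.50, limma adjusted p = 0.754). With limma's diffSplice, which takes 1 spread per gene, the adjusted p was 0.2.

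The sum of the 2 Runx1 transcripts was 2.69, 2.59 and 2.48 FPKM untreated and 3.64, 3.55 and 4.54 FPKM with BMP4. In the BMP4 sample with the most Runx1-003 the level of Runx1-001 was lowest, and the untreated sample with Runx1-003 had the lowest untreated Runx1-001. Besides its start, Runx1-003 lacks the sixth exon of Runx1-001, 192 bases at chr16:92644154-92644345, so the 2 models differ in their first exons, in this exon and at the 3' end.

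Cbfb (ENSMUSG00000031885.13, chr8:105170674-105217989, plus strand), the partner subunit, was at 44.4, 44.6 and 45.2 FPKM untreated and at 48.9, 48.1 and 50.9 FPKM with BMP4. The untreated samples differed by less than 1 FPKM and the BMP4 samples lay just above them. The mean rose from 44.8 ± 0.410 to 49.3 ± 1.42 FPKM (SD, n = 3), or by 0.14 ± 0.04 (SE) on the log2 scale (limma adjusted p = 0.0495). The call stood at the edge of the threshold and was lost on leaving out any 1 of the 6 samples, with limma adjusted p-values of 0.0762, 0.131 and 0.0819 without untreated replicates 1, 2 and 3 and of 0.129, 0.0947 and 0.133 without BMP4 replicates 1, 2 and 3. It was also lost with a pseudocount of 0.1 (0.0512).

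The 4 listed Cbfb transcripts share their first exons and differ further on. The most abundant, Cbfb-003 (ENSMUST00000109392.7), was at 37.9, 39.2 and 37.6 FPKM untreated and at 44.0, 41.5 and 45.4 FPKM with BMP4, so that the groups did not overlap. Its mean was 38.2 ± 0.859 and 43.6 ± 1.99 FPKM (SD, n = 3), and the difference of 0.19 ± 0.05 (SE) on the log2 scale did not pass (limma adjusted p = 0.0867). It made up 68.1% to 70.3% of the listed Cbfb FPKM untreated and 70.7% to 73.8% with BMP4.

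Cbfb-003 differs from Cbfb-001 by its end, and the exon that sets them apart is printed for that reason. The fifth exon of Cbfb-003, 127 bases at chr8:105202452-105202578 on the plus strand in GENCODE M21, holds the 96 bases of the fifth exon of Cbfb-001, in lower case, and runs on for 31 bases, in capitals, from chr8:105202548.
Cbfb-003 exon: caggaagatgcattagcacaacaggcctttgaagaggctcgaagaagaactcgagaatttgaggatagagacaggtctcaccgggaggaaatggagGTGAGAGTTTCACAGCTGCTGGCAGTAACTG
The coding length without the stop codon is 546 bases in Cbfb-003 and 561 bases in Cbfb-001, and the 2 proteins differ in their last residues.

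The other Cbfb transcripts did not pass the test, and 2 of them moved against each other between samples. Cbfb-001 (ENSMUST00000052209.8) was at 12.4, 3.66 and 13.8 FPKM untreated and at 13.7, 16.1 and 4.21 FPKM with BMP4 (limma adjusted p = 0.915). Cbfb-004 (ENSMUST00000109394.2), which lacks the third exon of 117 bases at chr8:105178593-105178709, was listed at 3.30, 10.9 and 0 FPKM untreated and at 0, 0 and 12.2 FPKM with BMP4 (limma adjusted p = 0.831). The sample with the least Cbfb-001 in each group had the most Cbfb-004, and their sum was 13.7 to 16.4 FPKM in all 6 samples. Cbfb-002 (ENSMUST00000109395.7), which lacks the fifth exon, of 96 bases, was at 1.12, 2.03 and 3.86 FPKM untreated and at 1.87, 1.14 and 1.89 FPKM with BMP4 (limma adjusted p = 0.699).

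Of the 7 transcripts tested among the 9 listed, Runx2-002 was the 1 past the test, where 8.55% of all tested transcripts were. The groups did not overlap, with BMP4 higher, in Runx2-002 and Cbfb-003, and in Runx2-010, Runx1-003 and the Sp7 transcript, which were listed only through the BMP4 group. The share over all listed transcripts was 13.7%.

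**Figure D3:**
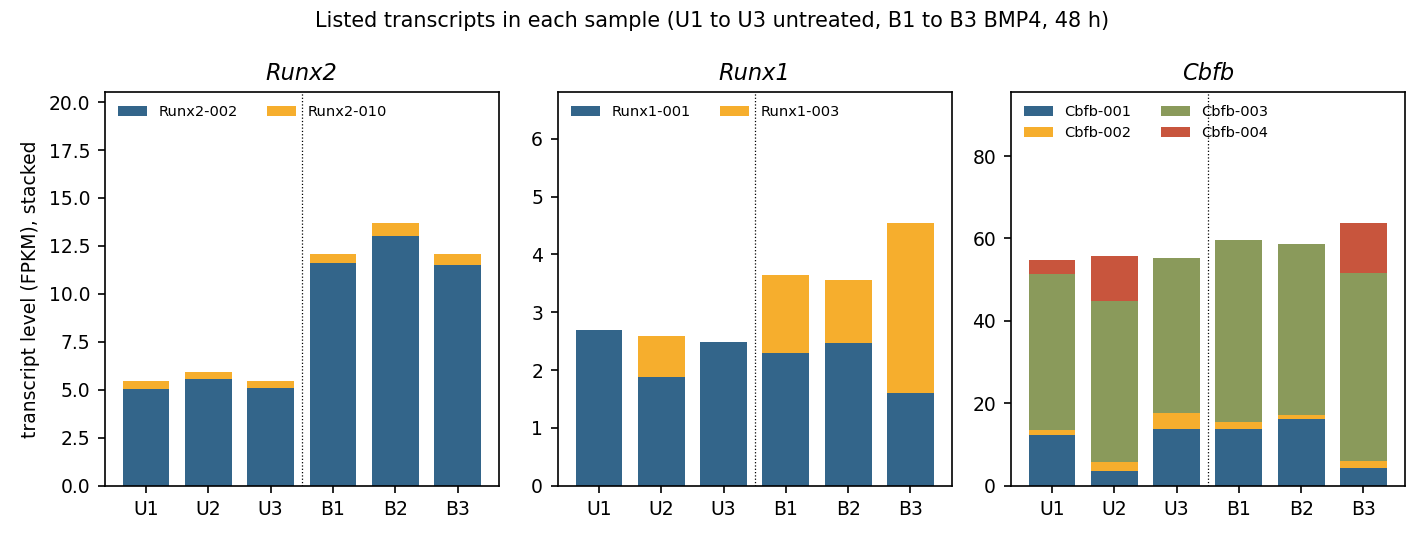
Transcript level in FPKM, stacked, of the listed transcripts of Runx2, Runx1 and Cbfb in each sample (U1 to U3 untreated, B1 to B3 BMP4). Runx2-002 makes up at least 91.9% of every Runx2 bar, Runx1-003 is visible in 1 of 3 untreated and 3 of 3 BMP4 samples, and Cbfb-003 holds at least 68.1% of every Cbfb bar while Cbfb-001 and Cbfb-004 trade places.

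CBFB pairs with each RUNX protein, so the level of its RNA was set against theirs, on the FPKM scale. Cbfb was 8.34, 7.91 and 8.71 times the sum of Runx1 and Runx2 untreated and 4.44, 3.99 and 4.50 times that sum with BMP4. With Runx3 in the sum as well, Cbfb was 5.90, 6.07 and 6.19 times the sum untreated and 3.62, 3.31 and 3.68 times with BMP4. The ratio to Runx1 and Runx2 was lower in every BMP4 sample than in any untreated sample (8.32 ± 0.398 against 4.31 ± 0.276, SD, n = 3, two-sided exact permutation p = 0.1, the smallest possible). In all 6 samples Cbfb RNA was above the sum of the 3 RUNX RNAs. Runx2 was 2.78, 3.32 and 2.94 times Runx1 untreated and 5.20, 5.87 and 4.59 times Runx1 with BMP4 (exact permutation p = 0.1).

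In the wider RUNX and SP family, 10 of 13 genes were listed and 8 were tested, of which 4 rose and 0 fell. Over all tested genes 13.6% rose and 14.3% fell. With untreated sample 1 left out 3 rose, and with any other sample left out 2 rose. The fourth gene to rise, beside Runx2, Runx1 and Cbfb, was Sp4, a zinc-finger factor related to Sp7, from 0.936 ± 0.0957 to 1.69 ± 0.124 FPKM (log2 fold change 0.47, limma adjusted p = 0.00331). Its untreated mean was under 1 FPKM, so that it passed the filter only through the BMP4 group. Runx3, the RUNX factor known from T cells and sensory neurons, was at 2.01 ± 0.267 FPKM untreated and 2.50 ± 0.0169 FPKM with BMP4 and did not pass (limma adjusted p = 0.0846). Sp1, Sp2 and Sp3, which are broadly expressed, did not pass either. Sp6 had means of 0.359 and 0.710 FPKM, was below the filter and was listed only through the BMP4 group. The median log2 fold change of the 8 tested genes was 0.20, against -0.00134 over all tested genes.

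Of 21 genes for upstream regulators, BMP transducers and partners of RUNX2 or SP7 in bone-forming cells, 1 of them an antagonist, 19 were listed and 17 tested. With BMP4, 11 rose, 2 fell and 4 did not pass, with a median log2 fold change of 0.34. Among all tested genes 13.6% rose and 14.3% fell. Dlx3, a homeobox factor active in bone, was at 0.128 ± 0.0521 FPKM untreated and 4.63 ± 0.576 FPKM with BMP4. It was listed and tested only through the BMP4 group and so had to differ, which holds for 1 of the 11. Smad9, a transducer of BMP signals, rose from 2.21 ± 0.179 to 12.3 ± 0.202 FPKM (2.05, limma adjusted p = 2.15e-06), and Smad1, another, from 4.45 ± 0.267 to 6.56 ± 0.178 FPKM (0.47, limma adjusted p = 0.00177). Their relative Smad5 was at 16.3 ± 2.06 and 15.3 ± 5.17 FPKM and did not pass (limma adjusted p = 0.722).

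Maf, a leucine-zipper factor that partners RUNX2, rose from 9.52 ± 0.409 to 19.9 ± 0.750 FPKM, and the forkhead factor Foxo1 from 11.2 ± 0.320 to 19.8 ± 0.328 FPKM. Dlx5, a homeobox activator of both Runx2 and Sp7, had means of 0.102 and 1.38 FPKM and was below the filter, as was Lef1, a WNT effector, with 0.134 and 1.62 FPKM. Like Sp7, both reached their place in the table through the BMP4 group. The 2 genes that fell were Zfp521, an antagonist of RUNX2, from 8.55 ± 0.136 to 7.07 ± 0.0663 FPKM (limma adjusted p = 0.0129), and Atf4, a partner of RUNX2 in late osteoblasts, from 241 ± 8.75 to 208 ± 9.99 FPKM (limma adjusted p = 0.0242). The Atf4 call was lost without the first or second untreated sample (limma adjusted p = 0.0501 and 0.0679) or the first or second BMP4 sample (0.0908 and 0.0969), and the Zfp521 call without the first BMP4 sample (0.0536).

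Of 27 genes for co-repressors, inhibitors and degraders of RUNX proteins, 24 were listed and 23 tested. With BMP4, 8 rose, 1 fell and 14 did not pass (median log2 fold change 0.13). Among all tested genes 13.6% rose and 14.3% fell. Hey1, a NOTCH and BMP target whose product represses RUNX2, was at 0.0877 ± 0.0185 FPKM untreated and 13.2 ± 0.635 FPKM with BMP4. It is the 1 of the 8 that was listed and tested only through the BMP4 group and so had to differ. Smurf2, a ubiquitin ligase, rose from 16.4 ± 1.45 to 23.4 ± 0.646 FPKM (0.49), the deacetylase Hdac5 from 10.3 ± 0.629 to 14.5 ± 0.699 FPKM (0.45) and the Groucho co-repressor Tle2 from 3.23 ± 0.331 to 4.76 ± 0.365 FPKM (0.45). Their limma adjusted p-values were 0.00214, 0.00211 and 0.0081. Twist1 and Twist2, which block the RUNX2 Runt domain, did not pass (limma adjusted p = 0.127 and 0.87), though Twist1 did, downward, without the third BMP4 sample (0.0316). The number that rose was 5 without the first untreated sample, the first BMP4 sample or the third BMP4 sample.

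Of 19 genes for co-activators and modifiers of RUNX proteins, 18 were listed and tested, of which 2 rose, 4 fell and 12 did not pass (median log2 fold change 0.07), beside 13.6% higher and 14.3% lower over all tested genes. Bcl9, a co-activator of WNT signaling, rose from 5.94 ± 0.141 to 8.18 ± 0.332 FPKM (limma adjusted p = 0.00235), and Wdr5, a subunit of histone methyltransferases, from 16.4 ± 0.490 to 19.1 ± 0.237 FPKM (0.0157). Ccnd1, cyclin D1, fell from 4.16 ± 0.245 to 2.60 ± 0.215 FPKM (limma adjusted p = 0.00238). Cdk6, its kinase partner, fell from 3.07 ± 0.355 to 2.11 ± 0.110 FPKM (0.0142), and the acetyltransferase Kat6b from 2.93 ± 0.513 to 2.03 ± 0.195 FPKM (0.0426).

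Among these calls, Kat6b was lost on leaving out any sample but untreated replicate 2 (limma adjusted p = 0.0838 to 0.112), and Cdk6 without untreated replicate 2 (0.0512). Wdr5 was lost without the second untreated (limma adjusted p = 0.0593), first BMP4 (0.0525) or second BMP4 sample (0.0657). Without the second untreated, first BMP4 or second BMP4 sample the list had 1 gene that rose and 2 that fell. Without the first untreated sample it had 2 of each.

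Of 36 genes of bone and cartilage known as targets of RUNX2 or SP7, 26 were listed and 23 tested. With BMP4, 12 rose, 8 fell and 3 did not pass, with a median log2 fold change of 0.27. The shares over all tested genes were 13.6% higher and 14.3% lower. Fmod, fibromodulin of the collagen matrix, rose from 47.9 ± 1.11 to 182 ± 3.01 FPKM (log2 fold change 1.90, limma adjusted p = 6.64e-07). The alkaline phosphatase gene Alpl, a marker of mineralization, rose from 2.33 ± 0.338 to 8.88 ± 0.459 FPKM (1.57, limma adjusted p = 2.63e-05). Col10a1, the collagen of hypertrophic cartilage and a RUNX2 target, was at 0.0174 ± 0.0302 FPKM untreated and 2.36 ± 0.234 FPKM with BMP4. The parathyroid hormone receptor Pth1r was at 0.442 ± 0.0798 and 3.02 ± 0.278 FPKM. These 2 of the 12 were listed only through the BMP4 group and so had to differ, and 2 more, Fgfr3 and Bglap, passed the filter only through it.

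Targets named for their textbook use as osteoblast markers, chosen with their values known, rose as well. Of a list of 7 osteoblast markers 4 were listed. Those tested were Alpl, Spp1 and Bglap, and all 3 rose, as did 13.6% of all tested genes. The fourth, Phex, a regulator of phosphate, was lower with BMP4 (0.695 ± 0.0709 and 0.335 ± 0.0491 FPKM) and was below the filter. Phex was listed only through the untreated group, so with this BMP4 mean it had to be lower. Spp1, osteopontin, rose from 22.7 ± 1.70 to 48.2 ± 1.11 FPKM (limma adjusted p = 2.79e-05). The osteocalcin genes Bglap2 and Bglap rose from 3.33 ± 0.725 to 8.04 ± 0.617 FPKM (limma adjusted p = 0.000805) and from 0.862 ± 0.267 to 1.65 ± 0.128 FPKM (0.0148). They are near-identical copies, so how the reads were split between them is uncertain, and the Bglap call was lost without BMP4 replicate 1 (0.0542) or BMP4 replicate 2 (0.0545).

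The targets that fell included main components of the bone matrix. Col1a1 and Col1a2, the chains of type I collagen, fell from 1060 ± 21.6 to 691 ± 19.2 FPKM (limma adjusted p = 0.000178) and from 387 ± 3.10 to 292 ± 3.47 FPKM (0.000457). Both also stand in the fibroblast list, where 6 of 10 markers fell and 3 rose, beside 14.3% and 13.6% of all tested genes. Omd, osteomodulin, fell from 10.1 ± 1.95 to 3.49 ± 0.678 FPKM (log2 fold change -1.30, limma adjusted p = 0.000849). The phosphatase Phospho1 fell from 6.53 ± 1.08 to 2.63 ± 0.308 FPKM (limma adjusted p = 0.000671), and Tnfrsf11b, osteoprotegerin, from 3.66 ± 0.514 to 2.01 ± 0.230 FPKM (0.004). Its ligand Tnfsf11, or RANKL, had means of 0.0618 and 1.08 FPKM and was below the filter. Tnfsf11 was listed only through the BMP4 group and so had to differ.

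Targets of RUNX1 in blood cells were mostly outside the tables. Of 20 such genes, 2 were listed. Itga2b, the platelet integrin subunit, was at 1.65 ± 0.159 FPKM untreated and 1.30 ± 0.165 FPKM with BMP4 and did not pass (limma adjusted p = 0.11). Itgb2, the leukocyte integrin chain, had means of 0.740 and 0.233 FPKM, was below the filter and was listed only through the untreated group.

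**Figure D4:**
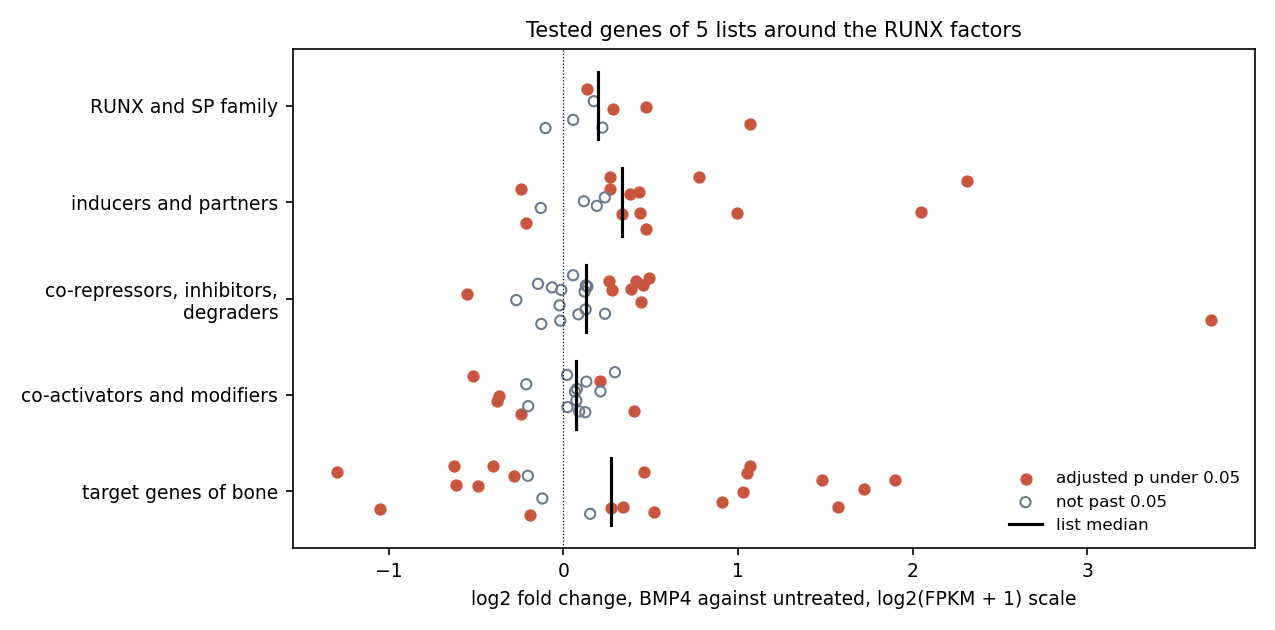
Log2 fold change, BMP4 against untreated on the log2(FPKM + 1) scale, of each tested gene in 5 lists around the RUNX factors; filled points have a limma adjusted p under 0.05, open points do not, and bars mark list medians. The medians are 0.20 for the family, 0.34 for inducers and partners, 0.13 for co-repressors, inhibitors and degraders, 0.07 for co-activators and modifiers and 0.27 for bone targets, whose points spread from -1.30 (Omd) to 1.90 (Fmod).

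Genes whose pattern over the 6 samples was most like that of each of the 4 genes were found among 10500 tested genes by the root mean square difference of log2(FPKM + 1), each gene centred on its own mean. For Runx2 they were Fgfr2, a fibroblast growth factor receptor in the bone list (0.0550), Spire1, an actin nucleator (0.0564), and Lox, the enzyme that crosslinks collagen (0.0565). Fgfr2 went from 2.82 ± 0.0585 to 6.81 ± 0.179 FPKM and Lox from 308 ± 14.8 to 654 ± 10.2 FPKM.

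For Sp7 the genes of most like pattern were the zinc-finger factor gene Glis1 (0.0531), the matrix gene Emilin2 (0.0532) and the phosphodiesterase gene Pde4a (0.0585). Glis1 went from 0.778 to 1.7 FPKM, Emilin2 from 32.2 to 47.7 FPKM and Pde4a from 4.52 to 7.45 FPKM. Sp7 went from 0.0392 to 0.548 FPKM, a ratio of 14.0 that none of these genes came near. The matches hold for a pseudocount of 1, where the Sp7 difference was 0.57. With a pseudocount of 0.1 that difference was 2.20, and matches with it were not tested. For Runx1 the genes of most like pattern were Gnas, which encodes a G protein subunit (0.0179), the kinase gene Gsk3a (0.0195) and Ostf1 (0.0197). For Cbfb they were Rab5a (0.0140), Tmem123 (0.0159) and Rabl6 (0.0171). A smaller value is a closer match on the log2 scale, and small values are reached more easily by genes that change little.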

How the data were processed

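Polyadenylated RNA was measured in 3 untreated and 3 BMP4 samples of 2H11 cells, with stranded libraries read as paired ends per the labels' protocols. The submitters' processing notes name FastQC, cutadapt, HISAT2, StringTie and the mouse build GRCm38, with no versions; the annotation release is not given. Per the file headers, the authors deposited FPKM for each gene and each transcript, all protein-coding. The higher group mean was at least 0.502 FPKM in each listed gene and 0.5 in each transcript, and 1 emptied line per table was skipped. For 1147 genes with every transcript listed, weighting transcript FPKM by length gave the gene FPKM within 1% in 100% of values. No steps of whole reads were found, so the depth is unknown. No 2 samples were identical (0 pairs).

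Genes and transcripts averaging 1 FPKM or more were tested on log2(FPKM + 1) with limma 3.58.1 in R 4.3.3 (two-sided, intensity trend, Benjamini-Hochberg over the whole table, threshold 0.05). The limma adjusted p-values in the text come from this test. Fold changes on this scale understate those of low genes. Transcript balance is log2(FPKM + 1) of a transcript minus that of the summed other listed transcripts of its gene, tested in the same way. Sp7, below the filter, was compared by an exact permutation test. Scripts were tested on simulated data.

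The 4 genes, the lists, the tests and the rule for named genes were chosen with earlier results of these data known. The rule took the 4 genes with their transcripts, up to 5 tested genes past the threshold per list by size of log2 fold change, and the 3 genes of most like pattern for each. Further list members were named with their values known: Runx3, Sp1, Sp2, Sp3, Sp6, Smad5, Dlx5, Lef1, Zfp521, Atf4, Twist1, Twist2, Wdr5, Spp1, Fgfr3, Phex, Bglap, Bglap2, Col1a1, Col1a2, Phospho1, Tnfrsf11b, Tnfsf11, Itga2b, Itgb2, Pdgfra, Pdgfrb and Thy1. List genes with no value are not analysed here, and some counted list genes are not reported by name. Alternatives were another pseudocount, other filters, 2 rescalings, a replicate block, diffSplice and leaving out each sample. A planned count test was not run, since the tables hold FPKM. Sequences are from RefSeq (GRCm38.p6) and GENCODE M21; 3 of the 4 genes matched a promoter entry.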

Additional observations from a re-analysis of the deposited data

How the results depend on the processing

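Runx2 kept its direction and call under all 12 alternatives run, and Runx2-002 under all 9. The Runx1 call was lost with the replicate block (log2 fold change 0.28, limma adjusted p = 0.0718), and over the fits that leave out 1 sample the log2 fold change was 0.24 to 0.31. The Cbfb call was lost with a pseudocount of 0.1 (0.14) and with the replicate block (0.14, limma adjusted p = 0.156), and its log2 fold change was 0.11 to 0.15 on leaving out each sample. Sp7, listed only through the BMP4 group, was past the limma threshold with no filter (0.57), which supports nothing, had an exact permutation p of 0.1 under every other alternative run, and its log2 difference was 0.51 to 0.63 on leaving out each sample and 2.20 with a pseudocount of 0.1.

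Genes past the threshold numbered 3046, and 2036 to 3317 under the alternatives. With each sample scaled to the same sum, 1743 were higher and 1383 lower, against 1487 and 1559. Transcripts past the threshold numbered 1472, 341 with the replicate block and 752 to 1075 on leaving out each sample. Transcripts past the balance test numbered 26, 125 with diffSplice, 0 with the replicate block and 12 to 28 on leaving out each sample, and at an unadjusted p under 0.05 there were 762 without the block. Same-numbered samples did not deviate together (r = -0.149, 0.05 and -0.221), so the numbers were not taken as pairs. With the replicate block the lists had 2 genes higher in the family, 0 lower among inducers and partners, and 1 higher and 2 lower among co-activators. With a filter at 5 FPKM, which tests fewer genes, 2 of 5 were higher in the family, 4 of 15 among co-repressors and 7 of 15 among bone targets. Of the named genes, Atf4, Kat6b, Wdr5 and Zfp521 also lost their calls with the replicate block (limma adjusted p = 0.0988, 0.0972, 0.076 and 0.0654), and Kat6b with equal sums (0.0731).

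Directions that turned on leaving out a sample were all of values past no test. Runx1-001 ranged from -0.21 to 0.022. Cbfb-001 ranged from -0.36 to 0.70 and its balance from -0.58 to 0.73, Cbfb-004 from -1.89 to 0.19 and its balance from -2.12 to 0.11, Cbfb-002 from -0.56 to 0.042, Smad5 from -0.29 to 0.17 and Twist2 from -0.077 to 0.046. Twist2 was also at 0.021 with equal sums. The causes were not tested. The depth is unknown, so values under 1 FPKM, as in Sp7, Runx2-010 and Runx1-003, have only the spread of 3 samples as their error.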
